A study of Mus musculus with 9 samples.

Results

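The regions described here carried Hdac1 and Hdac2 peaks in Bry cells and an Hdac1 peak in Hd1_loxlox cells, and no peak in Hd2lox cells. They were selected on the peak calls themselves: the peaks of 6 lists were merged wherever they overlapped by at least 1 bp, and a merged region was kept if it held a Bry Hdac1, a Bry Hdac2 and a Hd1_loxlox Hdac1 peak and none of the other 3 lists. The rule therefore also left out regions with a Hd1_loxlox Hdac2 peak. It kept 1772 of 24761 merged regions (7.16%), and 37.0% of the 4792 regions that held the 3 required lists.

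The study profiled Hdac1 and Hdac2 by ChIP-seq in haemogenic endothelium grown in culture from untreated mouse C57BL/6 embryonic stem cell lines. Bry cells were used at passages 16 to 19, and Hd1_loxlox and Hd2lox cells at passages 25 to 30, so passage cannot be told apart from line where Bry is compared, while Hd1_loxlox and Hd2lox had the same passages. The labels name the lines but give no alleles, driver, clone number or state of the Hdac1 and Hdac2 genes, so nothing here can be read as the effect of a deletion. Each line and antibody had 1 library (Hdac1 antibody from Diagenode, Hdac2 antibody from abcam), and the 3 inputs were not used here. Markers of haemogenic endothelium could not be checked, since peak positions give no expression levels.

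With 1 library per line and antibody no test between lines was made. Intervals in brackets are Wilson 95% intervals that cover counting error over regions or genes, which are not replicates. The presence or absence of a peak is a call, and the read depth behind it is unknown: a region without a Hd2lox peak is not shown to lack the protein.

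Hdac1 and Hdac2 are closely related histone deacetylases that form the catalytic core of the Sin3, NuRD and CoREST complexes. They have no sequence preference of their own and reach chromatin through transcription factors and partner subunits, and they are found both at repressed genes and at active, acetylated promoters. Haemogenic endothelium is the specialised endothelium from which the first blood stem and progenitor cells bud, a change in which Runx1, Gfi1 and other blood transcription factors take over from the endothelial programme.

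Most of the regions lay at promoters, so the promoter letters of those with the widest peaks are shown. Each line gives the 150 bases before the annotated start, 5′ to 3′ on the gene's own strand, from RefSeq on GRCm38.p6, the assembly of mm10. Capitals mark matches, on either strand, to the letters searched for NFY, the E-box, the TATA box, the shorter cyclic AMP response element and SP/KLF factors, which are spelled out with their shares further on. The stretches lie at chr13:51846525-51846674 (+) for Gadd45g, chr4:134018817-134018966 (-) for Lin28a, chr8:84978749-84978898 (-) for Junb, chr8:128358923-128359072 (+) for Nrp1, chr1:172500096-172500245 (+) for Tagln2 and chr16:91646973-91647122 (-) for Gart.
Gadd45g: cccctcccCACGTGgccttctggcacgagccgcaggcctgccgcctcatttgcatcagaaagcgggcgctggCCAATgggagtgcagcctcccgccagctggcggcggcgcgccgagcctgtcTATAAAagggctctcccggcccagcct
Lin28a: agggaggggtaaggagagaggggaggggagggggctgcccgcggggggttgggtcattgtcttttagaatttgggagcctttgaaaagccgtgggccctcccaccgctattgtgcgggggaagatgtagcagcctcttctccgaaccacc
Junb: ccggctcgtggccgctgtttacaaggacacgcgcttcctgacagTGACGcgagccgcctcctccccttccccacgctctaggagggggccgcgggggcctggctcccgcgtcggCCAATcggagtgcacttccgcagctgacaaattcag
Nrp1: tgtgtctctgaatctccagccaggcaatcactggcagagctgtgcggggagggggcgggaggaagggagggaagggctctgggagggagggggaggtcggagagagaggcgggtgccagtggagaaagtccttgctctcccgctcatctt
Tagln2: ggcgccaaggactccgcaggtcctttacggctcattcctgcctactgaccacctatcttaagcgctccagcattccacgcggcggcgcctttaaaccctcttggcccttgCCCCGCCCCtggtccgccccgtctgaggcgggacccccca
Gart: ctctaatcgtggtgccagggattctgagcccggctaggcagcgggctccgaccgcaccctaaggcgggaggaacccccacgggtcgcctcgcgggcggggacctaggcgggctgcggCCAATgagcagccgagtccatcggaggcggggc

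The letters CCGGAAGT, bound by ETS transcription factors, a family to which the blood and endothelial regulators Fli1 and Erg belong, were present in more of these promoters than in those of regions that also held Hd2lox peaks (values below). In 12 regions a match lay between a pair of starts that face away from each other with 60 to 250 bases between them. The 4 of these with the widest peaks are shown on the plus strand, with the ETS letters of either strand in capitals. They were picked after the motif shares had been seen. They lie at chr12:80644112-80644214 (Erh, Slc39a9), chr19:5688909-5689130 (Pcnx3, Map3k11), chr9:65908795-65909009 (Trip4, Csnk1g1) and chr5:114380506-114380619 (Kctd10, Ube3b).
Erh/Slc39a9: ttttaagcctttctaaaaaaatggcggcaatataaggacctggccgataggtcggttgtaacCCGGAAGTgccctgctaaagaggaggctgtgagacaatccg
Pcnx3/Map3k11: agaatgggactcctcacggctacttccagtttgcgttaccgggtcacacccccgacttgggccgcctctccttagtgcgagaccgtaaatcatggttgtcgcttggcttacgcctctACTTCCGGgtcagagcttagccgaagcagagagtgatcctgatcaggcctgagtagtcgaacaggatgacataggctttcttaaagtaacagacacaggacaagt
Trip4/Csnk1g1: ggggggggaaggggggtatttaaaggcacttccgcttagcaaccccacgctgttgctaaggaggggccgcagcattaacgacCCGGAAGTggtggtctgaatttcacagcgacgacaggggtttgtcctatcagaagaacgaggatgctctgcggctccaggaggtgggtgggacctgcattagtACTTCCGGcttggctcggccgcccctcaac
Kctd10/Ube3b: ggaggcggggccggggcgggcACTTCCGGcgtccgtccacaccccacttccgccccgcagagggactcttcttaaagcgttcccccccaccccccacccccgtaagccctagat

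The promoter shared by Erh and Slc39a9, a zinc transporter gene, carried 1 match in 103 bases, under peaks of 1854 bp (Bry Hdac1), 1766 bp (Bry Hdac2) and 2127 bp (Hd1_loxlox Hdac1). The stretch between Trip4, a transcriptional coactivator gene, and Csnk1g1, a casein kinase gene, carried 2 matches in 215 bases, under peaks of 1714, 1579 and 1831 bp in the same order. Both stretches were thus covered to a similar width in the 3 lists.

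The regions sat over gene starts. Of the 1772, 1562 lay within 1000 bp of a start or end of a protein-coding gene (88.1%, 86.6 to 89.6), against 41.8% of all merged regions. An annotated start was within 1000 bp of 1270 of them (71.7%, 69.5 to 73.7). Regions with both Hd2lox lists in addition, 1447 in number and called 5-list regions below, were at a start or end in 94.9% of cases, and the 1336 with the Hd2lox Hdac1 list alone in addition (4-list regions) in 94.7%. The 856 regions held only by both Bry lists were at a start or end in 59.1% of cases. The regions without Hd2lox peaks were thus promoter regions in the main, though less so than those that Hd2lox shared: 116 lay outside genes and away from any start or end (6.55%, 5.49 to 7.79), against 1.11% (0.682 to 1.79) of 5-list and 2.25% (1.58 to 3.19) of 4-list regions.

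At the 1011 regions near the starts of 1 gene only, the peaks straddled the start and reached further into the gene than upstream. The Bry Hdac1 peak ran at the median from 592 bp before the start to 798 bp after it, the Bry Hdac2 peak from 584 bp before to 749 bp after, and the Hd1_loxlox Hdac1 peak from 555 bp before to 856 bp after. The start itself was covered in 96.1% of these regions in Bry Hdac1, 94.7% in Bry Hdac2 and 96.2% in Hd1_loxlox Hdac1. Peak centres lay 101, 83 and 145.5 bp into the gene in the same order. At 990 comparable 5-list regions they lay at 167, 160.25 and 224 bp, and all 3 peaks ended further into the gene, at 962, 944 and 1045.5 bp.

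**Figure D1:**
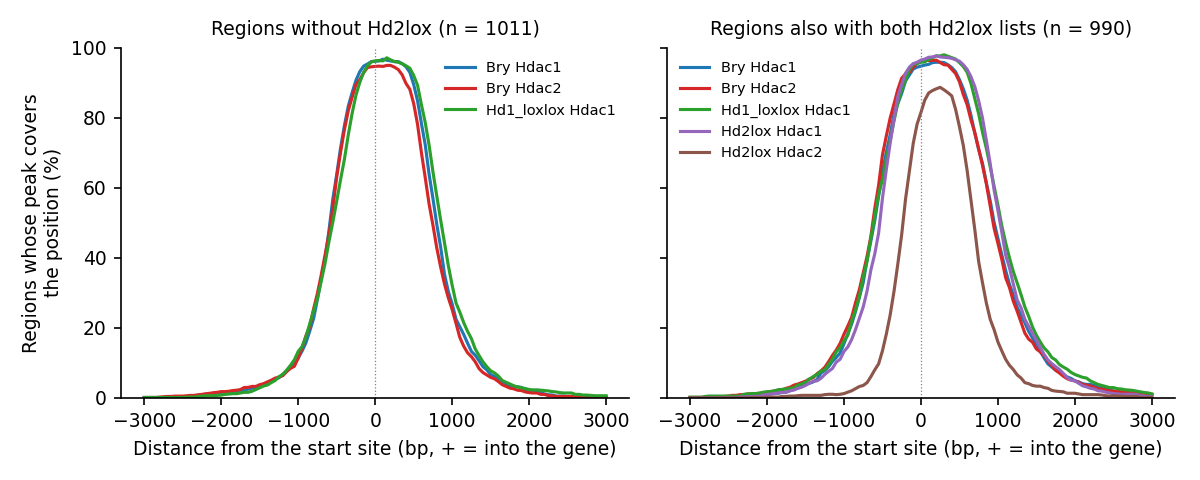
Share of regions (y axis, percent) whose peak covers each position relative to an annotated start (x axis, bp, positive into the gene), for the 1011 regions without Hd2lox (left) and 990 regions with both Hd2lox lists (right). Each line is 1 peak list; the 3 lists on the left follow one another closely, and the same lists on the right extend further into the gene.

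The 3 peaks of a region covered much of the same DNA. In 1726 regions each list gave 1 peak, and in 46 a list gave more. A stretch common to all 3 lists existed in 1760 regions, with a median of 1070 bp or 63.3% of the region, while in 12 the peaks were joined end to end without a common stretch. Median distances between peak centres were 133.5 bp between the 2 Bry lists, 144.25 bp between Bry Hdac1 and Hd1_loxlox Hdac1, and 153.5 bp between Bry Hdac2 and Hd1_loxlox Hdac1. The Hdac1 peaks of the 2 lines were thus about as near each other as the Hdac1 and Hdac2 peaks of Bry.

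Peaks of these regions were narrower than those of regions that Hd2lox shared. The median Bry Hdac1 peak was 1392 bp wide (interval of the median 1372 to 1414), against 1585.5 bp (1553 to 1624) in 5-list regions and 1598 bp (1564 to 1636) in 4-list regions. The Bry Hdac2 medians were 1354 bp (1328 to 1375), 1627 bp (1578 to 1660) and 1546.5 bp (1526 to 1586). The Hd1_loxlox Hdac1 medians were 1450.5 bp (1422 to 1478), 1690 bp (1663 to 1725) and 1634.5 bp (1603 to 1673). All were wider than peaks found in 1 list only, with medians of 1151, 1071 and 1217 bp. A wide peak meets peaks of other lists more easily, so width and the number of lists in a region are not independent. In 809 regions (45.7%) at least 1 of the 3 peaks was in the narrowest 25% of its list, and in 40 (2.26%) all 3 were in the widest 10%, against 114 of the 5-list regions (7.88%). Widths varied together only loosely, with Spearman's rho over the 1772 regions of 0.44 between the Bry lists, 0.38 between the Hdac1 lists of both lines and 0.35 between Bry Hdac2 and Hd1_loxlox Hdac1. These are descriptions: the regions share the library of each list.

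The genes differed in arrangement as well. Of the 1562 regions at a start or end, 474 touched more than 1 protein-coding gene (30.3%, 28.1 to 32.7), against 13.8% (12.1 to 15.8) of 5-list and 18.3% (16.3 to 20.6) of 4-list regions. A pair of starts facing away from each other, the arrangement of a bidirectional promoter, was present in 229 of the 1270 regions at an annotated start (18%, 16 to 20.2), against 5.19% (4.02 to 6.68) and 9.06% (7.46 to 11). The genes were also shorter: the 2033 protein-coding genes with such a region spanned 17.9 kb at the median (interval 17 to 19), against 38.1 kb for genes of 5-list and 30.3 kb for genes of 4-list regions. The median over all protein-coding genes was 17.2 kb.

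Promoter sequence was CpG-rich, though less so than at regions with Hd2lox peaks. In the 300 bases around the start (250 before, 50 after), the median GC content was 61.3% over 1533 genes with a region at an annotated start, 70.0% over 1168 genes of 5-list regions, 68.3% over 1160 genes of 4-list regions and 56.3% over all 17492 genes with a start in the table. The ratio of observed to expected CpG was 0.819, 0.901, 0.894 and 0.576 in the same order. It was over 0.6, a common mark of a CpG island promoter, in 86.9% of the 1533 promoters, 93% of the 5-list, 92.7% of the 4-list and 48.3% of all promoters.

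ETS letters were more frequent in these promoters than in the others compared. CCGGAAGT occurred on either strand in 207 of the 1533 promoters (13.5%, 11.9 to 15.3), in 58 of 1168 promoters of 5-list regions (4.97%, 3.86 to 6.37), in 90 of 1160 of 4-list regions (7.76%, 6.35 to 9.44) and in 5.29% of all 17492 promoters. The difference was present among promoters with a CpG ratio over 0.6, where the shares were 14.9% (13.1 to 16.9), 5.16% for 5-list regions and 9.11% for all such promoters. Away from chromosomes 8, 11 and 16 the share in the promoters of these regions was 14.0% (12 to 16.2). The promoters compared were not recomputed there. Promoters of divergent pairs held the letters in 18.9% of cases (15.6 to 22.7) and the other promoters in 11.1% (9.39 to 13.2). The printed Erh/Slc39a9 and Kctd10/Ube3b stretches are examples of the former. Each gene counted with its own promoter, so 1 match between close divergent starts could count for both genes. Divergent pairs gave 465 of the 1533 promoters and 88 of the 207 with the letters. The intervals treat these promoters as separate. Of 233 matches in these promoters, 130 (55.8%) began 1 to 100 bases before the start, close to the 57.8% of matches over all promoters.

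The other letters gave a mixed picture. The full cyclic AMP response element TGACGTCA was in 5.28% of the 1533 promoters (4.27 to 6.52), against 2.65% (1.88 to 3.74) of 5-list and 2.34% of all promoters. The shorter letters TGACG, which it contains, were in 39.1%, 33.5% and 23.8%. The NFY letters CCAAT were in 40.2% (37.8 to 42.7), against 31.6% of 5-list promoters, a share close to the 39.0% of all promoters. The SP/KLF letters GGGGCGGGG ran the other way, in 19.6% (17.7 to 21.6) against 30.6% (28.0 to 33.3) of 5-list, 33.5% of 4-list and 15.5% of all promoters. Among promoters with a CpG ratio over 0.6 they were in 19.7% (17.7 to 22.0), below the 32.3% of 5-list and the 26.4% of all promoters. The E-box letters CACGTG were in 12.4%, 11.9% and 7.90% of the promoters of these regions, 5-list regions and all genes. The letters AAGATGGCG of YY1 were in 4.50% (3.57 to 5.66), 3.0% (2.16 to 4.14) and 1.94%, and CGCATGCGC of NRF1 in 4.17%, 3.25% and 2.41%. YY1 letters were in 4.14% of 4-list promoters (3.14 to 5.44). Away from chromosomes 8, 11 and 16 they were in 3.125% of the promoters of these regions (2.24 to 4.34). Among promoters with a CpG ratio over 0.6, the shares in these, 5-list and all promoters were 12.6%, 12.2% and 11.5% for the E-box. They were 5.11%, 3.04% and 3.69% for YY1, 4.73%, 3.41% and 4.52% for NRF1, and 5.86%, 2.85% and 3.92% for TGACGTCA.

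Letters of blood regulators, AP-1 and the TATA box were rarer than in all promoters but more frequent than in 5-list promoters. The letters AGATAA of the GATA factors, which drive red cell and early blood genes, were in 3.85% of the 1533 promoters (3.0 to 4.93), 2.40% of 5-list promoters (1.66 to 3.44) and 9.96% of all promoters. The letters TGTGGT of the RUNX factors, among them Runx1, were in 11.7% (10.2 to 13.4), against 7.19% of 5-list (5.85 to 8.82) and 15.1% of all promoters. The AP-1 letters TGANTCA, to which Fos and Jun proteins bind, were in 4.24% (3.34 to 5.37), against 2.83% (2.02 to 3.94) and 7.08% of all promoters. The TATA box letters TATAAA, where the general transcription machinery can bind, were in 6.33% (5.21 to 7.66), against 3.17% (2.31 to 4.34) and 13.3% of all promoters. For GATA and AP-1 the intervals of these and the 5-list promoters overlap. Among promoters with a CpG ratio over 0.6, RUNX letters were in 11.6% of these (9.95 to 13.4), 6.54% of 5-list and 9.52% of all promoters. In the same order GATA letters were in 3.45%, 1.93% and 4.40%, AP-1 letters in 3.83%, 2.85% and 3.45%, and TATA letters in 6.08%, 3.04% and 5.86%. The palindrome GTCTAGAC, bound by Smad proteins, was in 5 of 1533 promoters (0.326%, 0.139 to 0.761) and 0.212% of all promoters. A match is a run of letters, not a bound site.

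**Figure D2:**
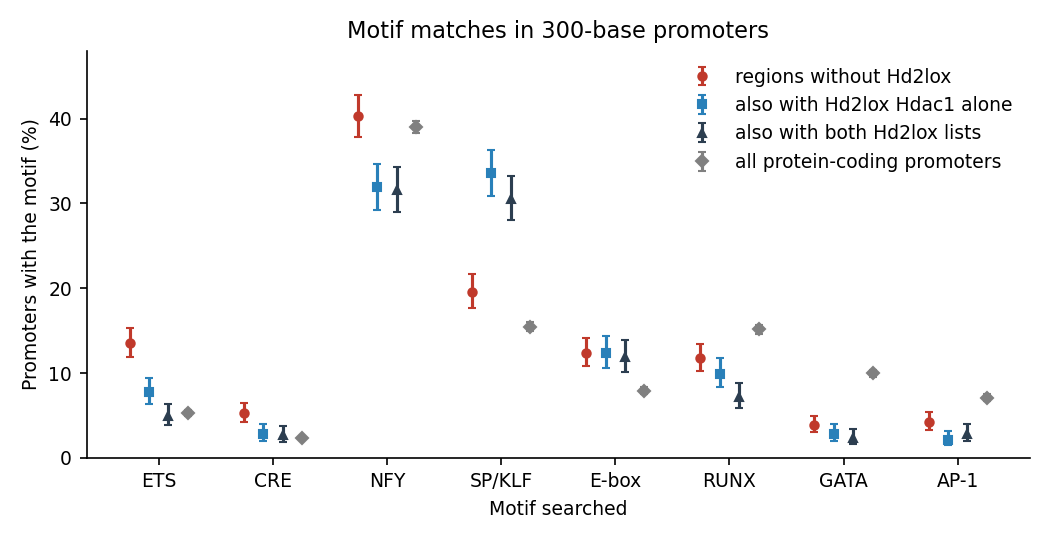
Share of 300-base promoters with a match to each motif's letters (y axis, percent; x axis, motif) in 1533 promoters of regions without Hd2lox, 1160 of 4-list regions, 1168 of 5-list regions and all 17492 promoters; bars are Wilson 95% intervals. ETS and CRE are highest in the regions without Hd2lox, and SP/KLF is lower there than in the regions that Hd2lox shared.

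Among protein-coding genes, 2033 of 21887 had such a region within 1000 bp of a start or end, a background of 9.29% (18.5% of the 11011 genes with a peak of any list, which are 50.3% of all). A 4-list or 5-list region and none without Hd2lox was present at 2983 of the 21887 genes (13.6%). Away from chromosomes 8, 11 and 16, 7.72% of genes had a region without Hd2lox. For 1914 of the 2033 genes (94.1%) no Hd2lox peak lay at any start or end of the gene, and for 1700 (83.6%) none lay in or near the gene at all. The other 119 had a Hd2lox peak within 1000 bp of a start or end of the gene, which can be the same start or end as the region's. Of the genes named below these included Nr4a1, Maff, Psma1, Sf3b2, Sox17, Cdkn1b and Dnttip1. The gene groups below are read against these shares and carry no test, since each was compiled with earlier results of these data known.

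Immediate early genes, which serum, growth factors and stress switch on within minutes, stood highest: 12 of 26 had a region without Hd2lox (46.2%), another 8 had a 4-list or 5-list region, and all 26 had a peak of some list. The count was 9 of 22 away from chromosomes 8, 11 and 16, and 7 of 26 once the narrowest 25% of peaks in every list were dropped. Dusp4, a nuclear phosphatase that switches off MAP kinases, had peaks of 5489 bp in Bry Hdac1, 5595 bp in Bry Hdac2 and, as the wider of 2 peaks, 4436 bp in Hd1_loxlox Hdac1, all in the widest 1% of their lists. Junb, a subunit of the AP-1 transcription factor, had peaks of 4233, 3370 and 3665 bp in that order. Dusp6, another MAP kinase phosphatase, had narrower peaks in Hd1_loxlox, with 2906 and 3064 bp in Bry and 1152 bp in Hd1_loxlox. Fos, the partner of the Jun proteins, had 1685 bp in Bry Hdac1, 2 peaks of which the wider was 1158 bp in Bry Hdac2, and 3049 bp in Hd1_loxlox Hdac1. Nr4a1, an orphan nuclear receptor, was at the narrow end, with 969, 1085 and 1234 bp. The others were Ier2, Atf3, Maff, Fosl1, Fosb, Ier3 and Zfp36, with peaks from 958 to 3592 bp (the wider where a list had 2). The region counted for Fosl1 lay outside that gene, at the start of Ccdc85b.

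Genes of the proteasome, the protease that degrades ubiquitinated proteins, came next: 14 of 35 had a region without Hd2lox (40.0%, or 45.2% of the 31 with a peak; 9 of 25 away from chromosomes 8, 11 and 16), and 4 others a 4-list or 5-list region. They covered both parts of the particle. Psma1, Psma3, Psma6, Psmb1, Psmb2, Psmb4, Psmb6 and Psmb7 encode subunits of the catalytic core, Psmc5, Psmd1, Psmd2 and Psmd3 of the regulatory cap, and Psme2 and Psme3 of the PA28 activators. Their peaks varied in width, and many were narrow. Ranked by width within its own list, the lowest of a region's 3 peaks stood at percentile 82.8 for Psme2 and 3.50 for Psmb7. For Psmb4, Psma1, Psmb6, Psmc5 and Psmd2 it stood between 3.81 and 6.56. Psme2, in a region shared with Rnf31, had 1914, 2444 and 2047 bp in Bry Hdac1, Bry Hdac2 and Hd1_loxlox Hdac1, Psma3 had 1588, 1177 and 1553 bp, and Psmb7 had 907, 1037 and 1086 bp.

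Other housekeeping groups followed by share of all their genes. Splicing factors had 11 of 40 (27.5%, or 32.4% of the 34 with a peak), among them Sf3b1 and Sf3b2 of the U2 particle, Prpf19 and the helicase gene Ddx5, which had a region at both ends. Sf3b1 peaks were 2047, 1205 and 1893 bp wide. Translation initiation factors had 9 of 35 (25.7%, or 26.5% of those with a peak), with Eif4a1, the helicase that unwinds mRNA leaders, at 1998, 1989 and 1978 bp and Eif2b1, Eif2b2 and Eif2b4 of the guanine exchange factor eIF2B. Mitochondrial ribosome and import genes had 8 of 41 (19.5%, or 8 of the 32 with a peak), and 5 of 32 away from chromosomes 8, 11 and 16. At Eif3d the widths lay far apart, with 779 and 857 bp in Bry and 2361 bp in Hd1_loxlox, each from 1 library. The 779 bp of Bry Hdac1 is the narrowest width in that list.

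**Figure D3:**
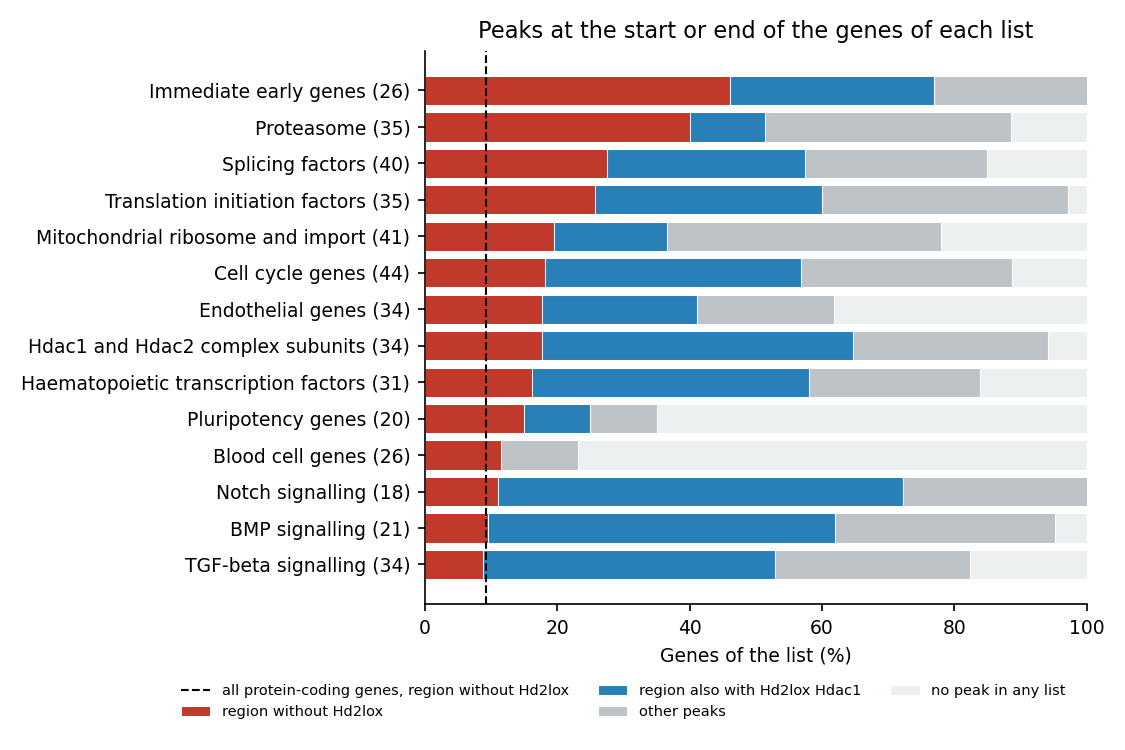
Share of the genes of each group (x axis, percent; number of genes in brackets) with a region without Hd2lox, otherwise a 4-list or 5-list region (labelled as also with Hd2lox Hdac1), other peaks, or no peak at a start or end. The dashed line is the 9.29% of all protein-coding genes with a region without Hd2lox; immediate early and proteasome genes extend furthest beyond it.

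Genes of the blood and endothelial programmes contributed few regions each, with shares above the 9.29% of all protein-coding genes. Haematopoietic transcription factors had 5 of 31 (16.1%, or 19.2% of the 26 with a peak, close to the 18.5% of all such genes), while 13 had a 4-list or 5-list region. The count was 3 of 21 away from chromosomes 8, 11 and 16. Fli1, an ETS factor of endothelium and blood, had the widest peaks of the group, with 3900 bp in Bry Hdac1, 2 peaks of which the wider was 2451 bp in Bry Hdac2, and 3642 bp in Hd1_loxlox Hdac1. Gfi1, a repressor that recruits CoREST to endothelial genes during blood formation, had 1622 and 3590 bp in the Bry lists and 2 peaks in Hd1_loxlox Hdac1, the wider 1838 bp, and Hd2lox peaks began only 686 bp (Hdac1) and 929 bp (Hdac2) away, so its region missed the Hd2lox lists narrowly. The others were Lyl1, Nfe2 and Klf1. Klf1, the master regulator of red cell genes, had 1129, 1198 and 1152 bp, with the peaks lying beyond its annotated start.

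Endothelial genes had 6 of 34 (17.6%, or 28.6% of the 21 with a peak, against 18.5% of all such genes). Away from chromosomes 8, 11 and 16 they had 4 of 25. Nrp1, a co-receptor for VEGF and semaphorins, had peaks of 3614, 3694 and 3249 bp in Bry Hdac1, Bry Hdac2 and Hd1_loxlox Hdac1, and Kdr, the main VEGF receptor, 1446, 1701 and 2708 bp. Its relative Nrp2 and the genes Plvap, Nos3 and Sox17 made up the rest. Blood cell genes had 3 of 26 (11.5%), namely Kit, Itgb3 and Itga2b (CD41, an early surface mark of blood commitment), which were 3 of only 6 with a peak in any list. Away from chromosomes 8, 11 and 16 the count was 1 of 20, namely Kit, since Itgb3 and Itga2b lie on chromosome 11. Kit, the stem cell factor receptor, had peaks of 1977, 2080 and 2148 bp. Itga2b had 1466, 1541 and 1287 bp.

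TGF-beta signalling, which the study names in its title, was at the background: 3 of 34 genes had a region without Hd2lox (8.82%, against 9.29%; 10.7% of the 28 with a peak, against 18.5%), and 15 had a 4-list or 5-list region. The 3 were Tgif1, a repressor of Smad targets that itself recruits histone deacetylases, with peaks of 4939, 2987 and 1879 bp, Tgfbr3 (betaglycan, a co-receptor) with 1786, 1106 and 1692 bp, and the matrix protein gene Ccn2 with 965, 1121 and 1706 bp. BMP signalling had 2 of 21 (9.52%), the inhibitors Id1 and Id3, and Notch signalling 2 of 18 (11.1%), the target Hey2 and the coactivator Maml2. In BMP and Notch signalling 11 genes each had a 4-list or 5-list region. Regions that Hd2lox shared outnumbered those without Hd2lox over all genes too (13.6% against 9.29%), and whether these 3 pathways differ from other genes in this was not tested.

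Subunits of the Hdac1 and Hdac2 complexes had 6 of 34 (17.6%, or 18.8% of the 32 with a peak), and 16 others had a 4-list or 5-list region. Sin3a, the scaffold of the Sin3 complex, carried 2 such regions, the wider with peaks of 2963, 2550 and 2593 bp. Chd4, the remodelling ATPase of NuRD, had 1 at its start with peaks of 1775, 1580 and 1920 bp and 1 at its other end, where Nop2 begins. The rest were Sin3b, Mta2 and Rbbp4 of Sin3 and NuRD and Dnttip1 of the mitotic deacetylase complex. The region counted for Dnttip1 lay outside that gene, at the start of Ube2c. Cell cycle genes had 8 of 44 (18.2%, or 20.5% of the 39 with a peak). Myc had peaks of 3075, 5142 and 5694 bp, with a Hd2lox Hdac2 peak 369 bp away, and Mycn had 2 peaks each in the Bry lists, the wider 3364 and 2033 bp, and 1 of 4865 bp in Hd1_loxlox. The inhibitors Cdkn1a and Cdkn1b, the kinase Cdk4 and the replication helicase genes Mcm5 and Mcm7 also belonged to this group. The region counted for Cdkn1b lay outside that gene, 841 bp away. Pluripotency genes had 3 of 20 (15.0%), with Lin28a, Tbx3 and Sall4, while 13 had no peak.

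Among regions at a start given in the RefSeq promoter table, those with the widest peaks in all 3 lists came from varied genes. Dusp4, Myc and Tbx3, also with very wide peaks, have no region at a start in that table and were not ranked with them. Gadd45g (chr13:51843954-51850083), a stress-induced activator of MAP kinases and brake on growth, had the widest region of all, with peaks of 5262 bp in Bry Hdac1, 6130 bp in Bry Hdac2 and 4719 bp in Hd1_loxlox Hdac1. Its printed promoter holds an E-box, CCAAT and a TATA box. Lin28a (chr4:134016264-134021324), which blocks maturation of let-7 microRNAs in early cells, had 3931, 4962 and 4430 bp, and its printed stretch holds none of the letters searched. Vim (chr2:13573355-13576661), the intermediate filament of mesenchymal cells, had 2814, 2424 and 2758 bp. Pcgf2 (chr11:97697674-97701399), a Polycomb repressive complex subunit, had 3250, 2713 and 2651 bp.

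Several of the widest regions touched a pair of genes. Gart, an enzyme of purine synthesis, and Son, a splicing cofactor, start back to back at chr16:91645772-91648915, under peaks of 2693, 2975 and 3001 bp. Gapdh, the glycolytic enzyme, and Ncapd2, a condensin subunit, met at chr6:125163630-125167666 (3191, 4037 and 2799 bp). Tagln2, an actin-binding protein, had 2959, 3170 and 3629 bp in a region that also reached Igsf9. In each of these pairs the 3 widths lay within 1.5 times of one another. Fam43a, Ankrd27 with Rgs9bp, and Amotl2, an angiomotin of endothelial junctions, completed the first 12, with peaks from 2507 to 3343 bp.

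Away from any start or end, 94 regions lay inside a protein-coding gene (5.30%, 4.35 to 6.45) and 116 outside. The widest lay inside Kdm6b (chr11:69408423-69412451), the demethylase that removes the Polycomb mark, with peaks of 3880, 3307 and 3990 bp in Bry Hdac1, Bry Hdac2 and Hd1_loxlox Hdac1. A region inside Erg (chr16:95438691-95441708), an ETS factor required for blood stem cells, had 2168, 2112 and 3014 bp. Another lay at the non-coding host gene of miR-22, Mir22hg (chr11:75459778-75463421), with 3202, 2707 and 2456 bp. The other 2 of the first 5 lay at the non-coding gene 2410080I02Rik, 4059 bp from Klf9 (chr19:23133898-23137167), and 2131 bp from Bcl9l, a beta-catenin coactivator gene (chr9:44477552-44480607). Of the 1005 microRNA hairpins in the RefSeq table, 12 overlapped a region, among them Mir191 and Mir425 in a single one (chr9:108566575-108568834) and Mir423.

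The regions were unevenly spread over chromosomes. On chromosome 11 they made up 268 of 569 regions with the 3 required lists (47.1%, 43.0 to 51.2), on chromosome 16 79 of 173 (45.7%, 38.4 to 53.1) and on chromosome 8 211 of 478 (44.1%, 39.8 to 48.6). On the remaining chromosomes together the share was 1214 of 3572 (34.0%, 32.5 to 35.6), and among autosomes it was lowest on chromosome 3, at 26.3%. Chromosomes 8, 11 and 16 held 31.5% of the 1772 regions, against 19.3% of 5-list regions, 22.1% of 4-list regions and 15.2% of protein-coding genes. The X chromosome held 1 of the regions, at Ints6l.

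**Figure D4:**
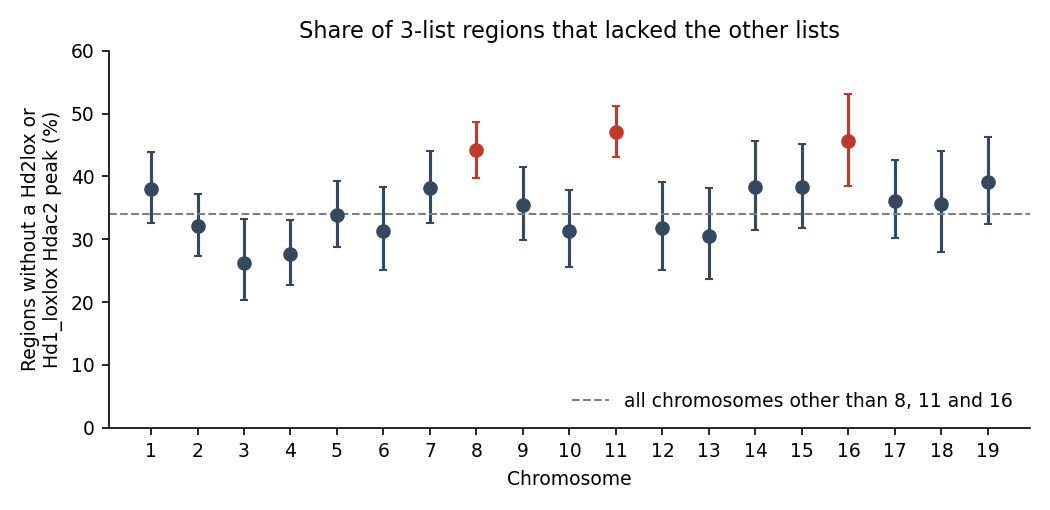
Share of the regions with the 3 required lists that held no other list (y axis, percent) on each autosome (x axis); bars are Wilson 95% intervals and the dashed line is the 34.0% of all chromosomes other than 8, 11 and 16, which are in red. Chromosomes 8, 11 and 16 stand at 44.1% to 47.1%; X, with 4 such regions, and Y, with 1, are not drawn.

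The same 3 chromosomes were uneven in whole lists. They held 21.7% of Bry Hdac1, 21.3% of Bry Hdac2, 26.7% of Hd1_loxlox Hdac1 and 35.3% of Hd1_loxlox Hdac2 peaks, but 16.2% of Hd2lox Hdac1 and 14.8% of Hd2lox Hdac2 peaks. For peaks away from gene starts and ends the shares were 25.7%, 25.0%, 37.3% and 35.8%, against 13.6% and 13.7% in Hd2lox. Chromosome 8 was high in both Bry and Hd1_loxlox, at 13.2% and 13.3% of such Hdac1 peaks against 5.80% in Hd2lox, while chromosome 11 was highest in Hd1_loxlox, at 19.4% against 10.1% in Bry and 4.97% in Hd2lox. On chromosome 16 the Bry lists (3.17% of all Hdac1 and 3.15% of all Hdac2 peaks) were near the Hd2lox lists (3.13% and 3.09%). Only the Hd1_loxlox lists were higher there, at 4.35% and 6.47%. On chromosomes 8 and 11 the excess of the regions thus went along with a difference between whole lists. The whole lists include the peaks of these regions, so this is not a separate observation. The regions held 23.4% of Bry Hdac1, 19.4% of Bry Hdac2 and 23.9% of Hd1_loxlox Hdac1 peaks, and by the rule no Hd2lox peak. On chromosome 16 the difference between whole lists was present in Hd1_loxlox but not in Bry. Read depth and chromosome copy number cannot be read from positions, and their part in it was not tested. Away from chromosomes 8, 11 and 16 the share of the regions at a start or end was 89.95%.

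**Figure D5:**
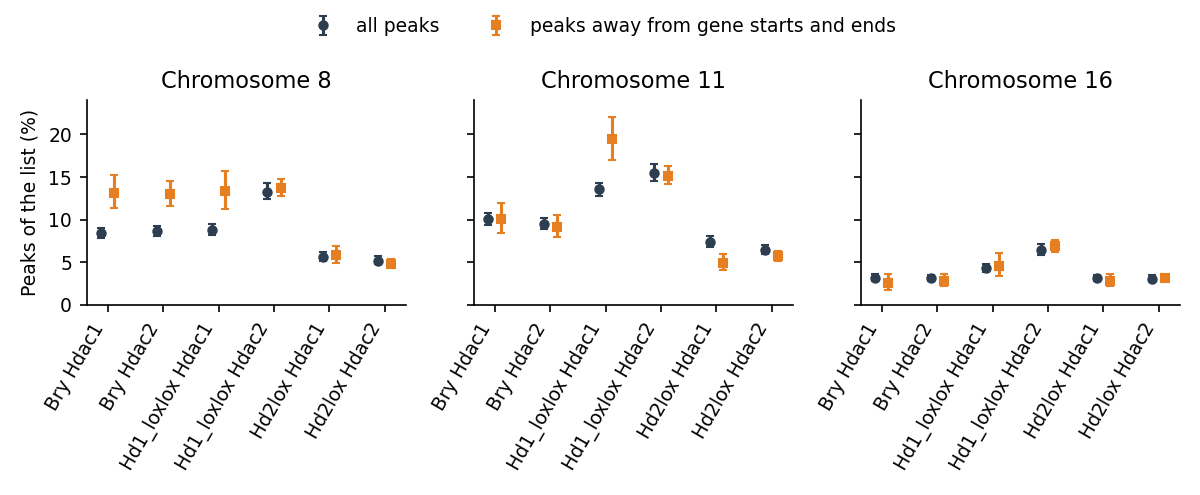
Share of each list's peaks (y axis, percent) on chromosomes 8, 11 and 16, for all peaks (circles) and for peaks away from gene starts and ends (squares), by list (x axis); bars are Wilson 95% intervals. The Hd2lox lists are the lowest on chromosomes 8 and 11, and the Hd1_loxlox lists the highest on chromosome 11.

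For most of the regions no peak of the other lists was near. The median gap to the nearest peak was 49762.5 bp for Hd2lox Hdac1, 57642.5 bp for Hd2lox Hdac2 and 85439 bp for Hd1_loxlox Hdac2, and 38 regions (2.14%) had a peak of one of these lists within 1000 bp. For regions held only by both Bry lists the median gaps were 56590.5, 70126 and 108497 bp in the same order. Such distances are thus not particular to the regions described here. The lists weighed unequally in the rule: of the 4792 regions with the 3 required lists, 2947 (61.5%) held a Hd2lox Hdac1 peak, 1564 (32.6%) a Hd2lox Hdac2 peak and 225 (4.70%) a Hd1_loxlox Hdac2 peak. Without the Hd2lox Hdac1 list the rule would have kept 3110 regions. The missing Hd1_loxlox Hdac2 peak was thus shared with nearly all regions of this kind and does not set these apart.

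Just inside the rule were Hnrnpl (chr7:28808122-28810446), an RNA-binding protein gene with a Hd2lox Hdac1 peak 6 bp away, and Gsk3b (chr16:38087383-38089104), a kinase of Wnt signalling with Hd2lox peaks 85 and 299 bp away. The next was a region at chr11:95857805-95860667, 115 bp from a Hd2lox Hdac2 peak. Just outside were regions at Ano8 and Gtpbp3 and at Wdr4, which a Hd1_loxlox Hdac2 peak overlapped by 63 and 79 bp, and at Tmem121, which a Hd2lox Hdac2 peak overlapped by 98 bp. Of the 3020 regions with the 3 required lists and another one, 8 overlapped that list by less than 500 bp, and the median overlap was 1418.5 bp. Few regions were therefore placed by a narrow margin in position. How near each peak stood to being called or missed cannot be read from positions and was not tested. Leaving out the narrow peaks of every list lowered the number of regions, as given further on.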

How the data were processed

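Of 9 ChIP-seq libraries, 6 had a deposited peak list and the 3 inputs were not analysed here. The deposited values are positions (chromosome, start and end of each peak), 46202 in all, made by the authors for each library alone, with no score or count. Per the submitters' processing notes the tools were bcl2fastq, Bowtie2 2.2.9, SAMtools 1.3.1 and MACS2 2.1.1.20160309 on mm10. The calling threshold, the mode and the use of inputs could not be taken from the labels (not given in the sources used here), and the depth behind each peak is unknown, so its part in a missing peak was not tested.

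Peaks on chromosomes 1 to 19, X and Y were merged at 1 bp of overlap, and the merge was checked against bedtools 2.31.1 and tested on simulated data. Gene positions were those of RefSeq for GRCm38.p6 (21887 protein-coding, of which 17492 had an annotated start in the promoter table). Python 3.11.15, pandas 2.3.3 and scipy 1.17.1 were used. A gene was counted if a region lay within 1000 bp of either outer end or an annotated start. Letters were searched on both strands.

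The members and the gene lists were chosen with earlier results of these data known. Members were ranked by the lowest of their 3 width percentiles, each within its own list. The text names the first 12 at starts, the first 5 away from genes' starts and ends, up to 8 genes of each of the 14 gene lists, and the 3 on either side of the rule; genes named beyond these were chosen after their values were seen. With 1 library per line and antibody there was no test between groups. The alternatives were a larger overlap, narrow peaks left out, another window, all annotated genes and each list left out.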

Additional observations from a re-analysis of the deposited data

How the results depend on the processing

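Of 158 values recomputed under other settings, 113 stayed within the interval of the reported value and 45 did not. For counts this interval was a fixed band, not a confidence interval. It ran from 1181.33 to 2658 for regions, 61.3 to 138 for listed genes and 8 to 18 for immediate early genes. Large moves could stay within it, such as 2646 regions without Hd1_loxlox Hdac1 or 64 listed genes without the narrowest 25% of peaks. Leaving out narrow peaks moved many of the 158 values. Without the narrowest 25% of peaks in each list there were 1179 regions, 91.3% at a start or end and 29.0% on chromosomes 8, 11 and 16, with median peak widths of 1582 (Bry Hdac1), 1532 (Bry Hdac2) and 1653 bp (Hd1_loxlox Hdac1), median gaps of 138564 (Hd1_loxlox Hdac2), 72402.5 (Hd2lox Hdac1) and 79560.5 bp (Hd2lox Hdac2), a CpG ratio of 0.834 and 7 immediate early genes. Without the narrowest 50% there were 720 regions, 93.1% and 28.3%, widths of 1875, 1817 and 1913 bp, gaps of 226460, 121477 and 108594 bp, a CpG ratio of 0.843 and 55 genes of the gene lists. Wider peaks and longer gaps follow from dropping narrow peaks. A window of 2500 bp put 89.7% at a start or end, and all annotated genes 91.9%. Without chromosomes 8, 11 and 16, an alternative chosen after seeing the data, 89.95% were at a start or end, with gaps of 120459 bp to Hd1_loxlox Hdac2 and 55286.5 bp to Hd2lox Hdac1.

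Leaving out 1 list at a time gave 1784 to 3110 regions, the latter without Hd2lox Hdac1, 78.6% to 91.0% at a start or end (the lowest without Hd1_loxlox Hdac1), 26.2% to 31.8% on the 3 chromosomes, widths of 1316 to 1479, 1296.5 to 1434 and 1405 to 1525.5 bp, CpG ratios of 0.809 to 0.849, ETS shares of 11% to 13.9% and 93 to 165 genes of the lists (92 with every list; 165 without Hd2lox Hdac1). No paired analysis was possible because each line and antibody had 1 library.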
